A study of Homo sapiens with 28 samples.

Results

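The same sequenced reads were aligned with HISAT-3N and with STAR, and the comparison below asks which genes receive other estimates of new RNA from one alignment than from the other. It covers 4044 genes, chosen as those whose exons held 50 or more reads in every one of 6 libraries under both alignments, of 22694 genes with any exonic read there. The rule used the number of reads under each alignment and not the converted share. It also acts on the read difference, since it left out 841 genes that reached the minimum under STAR only and 18 under HISAT-3N only. Under HISAT-3N, whatever the reads under STAR, 4062 genes reached this minimum, and under STAR, whatever the reads under HISAT-3N, 4885 did.

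All libraries came from wild-type HEK 293T cells, an established human embryonic kidney line, grown in culture and compared here as bulk total RNA. The 6 compared libraries were from cells given 100 µM 4-thiouridine (s4U) for 2 h, with RNA taken under the improved handling conditions. RNA was recoded with NaIO4 and trifluoroethylamine (TFEA) at pH 5.2, with iodoacetamide, or with OsO4 and NH3, and each of these 3 chemistries had 2 replicates. One unlabelled library without s4U per chemistry, 3 in all, gave the background, and 6 labelled drop-out libraries, made under the common handling, were set beside them. The series held 28 samples and 18 libraries were in the deposited counts. Experiments were run in duplicate, and nothing in the labels says that replicates were separate cultures, so p-values measure only the spread between these libraries.

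Cells build s4U into the RNA that they make during labelling, and the recoding chemistry then makes the polymerase read s4U as C. A read from new RNA therefore carries T-to-C mismatches to the genome, and a read from RNA made before labelling carries few or none. An aligner that counts each T-to-C mismatch against a read can lose the most recoded reads, and HISAT-3N was built to align reads with such conversions without that penalty. To do so it converts the bases of reads and genome to a reduced alphabet, which leaves less sequence to tell similar places in the genome apart. STAR and HISAT2 align to the genome with all 4 bases.

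Under HISAT-3N the 6 libraries held 2129372 to 4707058 reads, and under STAR 2391840 to 5393680. Of these, 695397 to 1747275 reads per library fell on exons of the 4044 genes under HISAT-3N. A read with 1 or more T-to-C mismatches is called converted, and the converted share is the percent of a gene's or library's reads that are converted. Over the 4044 genes, a library's converted share had a 95% Wilson interval that reached at most 0.098 percentage points to either side, which covers counting error only. STAR also listed reads without a unique place, 4.66% to 7.39% of a library, and HISAT-3N listed none.

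STAR gave the 4044 genes more reads and a lower converted share in every library. In the libraries recoded with NaIO4 and TFEA, the converted share was 24.0% under HISAT-3N and 21.1% under STAR in replicate 1, and 22.5% and 19.7% in replicate 2. In the iodoacetamide libraries it was 22.4% and 19.6% in replicate 1, and 22.9% and 20.01% in replicate 2. In the OsO4 and NH3 libraries it was 30.0% and 25.7% in replicate 1, and 26.4% and 22.7% in replicate 2. The paired difference was −3.23 ± 0.641 percentage points (SD, n = 6; STAR minus HISAT-3N), lower in 6 of 6 libraries. The two-sided exact sign-flip permutation p was 0.03125, the smallest that 64 arrangements allow, and 0.034375 after Benjamini-Hochberg adjustment over 11 such tests. Because both alignments hold the same reads, these tests ask how steady the difference was over libraries, and they do not add the error of sampling new reads.

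**Figure D1:**
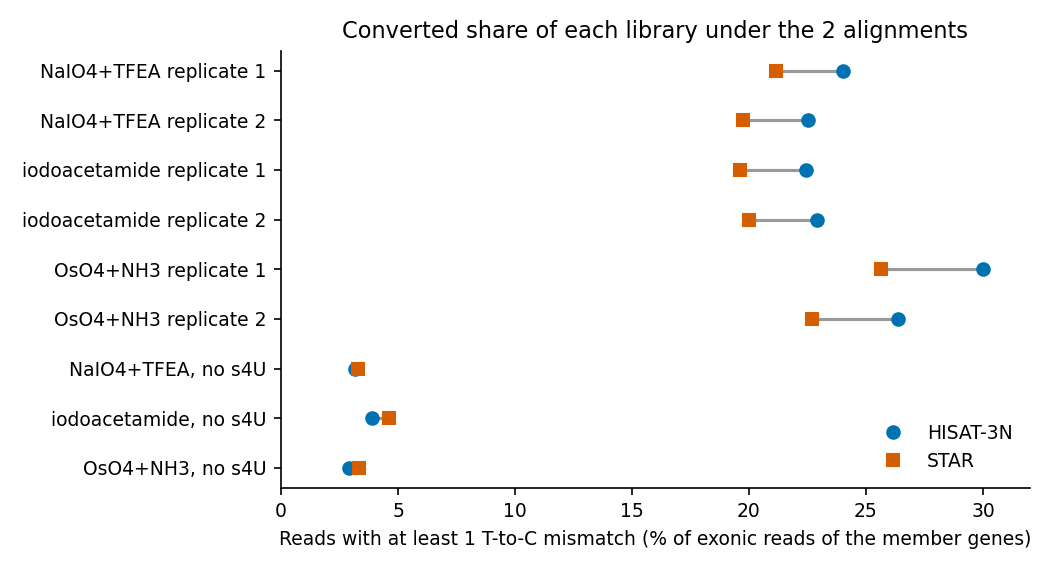
Converted share of the member genes pooled (x axis, percent of their exonic reads that are converted) in the 6 labelled and the 3 unlabelled improved-handling libraries (rows), under HISAT-3N (circles) and STAR (squares), with a line joining both values of a library. In every labelled library STAR lies to the left, by 2.76 to 4.34 points, and in the unlabelled ones it lies slightly to the right.

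The gain in unconverted reads lowered the converted share by more than the whole difference, and the gain in converted reads offset part of it. Over the 4044 genes, STAR gave 24.3 ± 2.71% more reads (SD, n = 6; range 21.2% to 27.2%). Unconverted reads were higher by 29.6 ± 2.07% and converted reads by 8.14 ± 3.20%, each in 6 of 6 libraries (exact sign-flip p = 0.03125 each). The gap between the 2 percent changes was −21.5 ± 2.21 points. With unconverted reads as STAR counted them and converted reads as HISAT-3N did, the converted share changed by −5.02 to −4.01 points. With converted reads alone as in STAR it changed by 0.768 to 1.97 points, in the other direction.

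Exons and introns did not shift alike. All exonic gene reads were higher under STAR by 23.4 ± 2.76% (n = 6), whereas intronic gene reads differed by −3.48 ± 3.77% and were lower in 5 of 6 libraries (exact sign-flip p = 0.09375). In the 3 unlabelled libraries intronic gene reads were higher under STAR, by 11.8 ± 5.85% (SD, n = 3). The paired gap between exonic and intronic change was 26.8 ± 4.03 points, with the same sign in 6 of 6 libraries (exact sign-flip p = 0.03125). Reads on no annotated feature were lower under STAR by a mean of 20.1% (−20.1 ± 8.56%), and reads that fit several genes were higher by 9.24 ± 2.69%.

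STAR's excess of reads was largest among reads without a T-to-C mismatch and was a deficit in every labelled library at 10 mismatches. In the pooled reads of the 4044 genes, the log2 ratio of STAR to HISAT-3N reads had a median over libraries of 0.38 for reads with 0 mismatches (range 0.34 to 0.40). It was 0.20 with 1 mismatch, 0.11 with 2, 0.09 with 3 and 0.06 with 6. At 7, 8 and 9 mismatches it was −0.02, 0.02 and 0.04, with libraries on either side of 0, and at 10 it was −0.44 (range −0.69 to −0.26). STAR listed 0 reads with more than 10 T-to-C mismatches in these genes, where HISAT-3N listed 25410 over the 6 libraries. Those reads made up 0.113% to 0.480% of the converted HISAT-3N reads after NaIO4 and TFEA or iodoacetamide. In the OsO4 and NH3 libraries, which had the highest converted shares, they made up 3.71% in replicate 1 and 1.75% in replicate 2. The STAR alignments with the settings codes ML and VL, which the labels do not define, listed 19196 and 20103 such reads.

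Nearly all genes received more reads from STAR. The median gene had 1.19 times the reads (log2 ratio 0.25; 10th to 90th percentile 0.12 to 0.44), and 3896 genes were higher in 6 of 6 libraries. In edgeR's quasi-likelihood test paired by library, with Benjamini-Hochberg adjustment over the 4044 genes and an adjusted p under 0.05, 4011 genes (99.2%) were higher under STAR and 4 (0.0989%) lower. Of the former, 1926 (47.6%) were higher by at least 1.2-fold. TMM scaling, which sets the bulk of genes to no change, moved the median log2 ratio to −0.02. It then called 1433 genes (35.4%) as higher and 1685 (41.7%) as lower than that common shift, with 108 (2.67%) higher and 6 (0.148%) lower by at least 1.2-fold.

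The converted share of most genes was lower under STAR. The median gene had a share of 26.6% under HISAT-3N and 23.2% under STAR. The median paired difference was −2.49 points (10th to 90th percentile −7.38 to −0.21), or −9.89% of the HISAT-3N share. By edgeR's quasi-likelihood test of the odds of a converted read (adjusted p under 0.05), the share fell in 2592 genes (64.1%) and rose in 34 (0.841%). A fall of at least 5 points was called in 1114 genes (27.5%), and 2123 genes were lower in 6 of 6 libraries. Converted reads were fewer under STAR in 325 genes and unconverted reads in 4. The number of calls depended on the method: edgeR gave 2626 in all without a Poisson bound on the spread and 1497 with it, and DESeq2, which differs in more than the spread, gave 965.

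Genes kept much of their order by converted share. Across the 4044 genes, Spearman's rho between the shares of the 2 alignments was 0.979, a description across genes of the same reads. The quintile of genes with the highest share held 808 genes, of which both alignments placed 725 (89.7% of each list) there. A gene's rank moved by a median of 4.20 percentile points, and 326 genes moved by more than 10.

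The genes fell into 2 groups of nearly equal size by how far STAR exceeded HISAT-3N in reads. This grouping was made after the values had been seen, and it uses only the 3 unlabelled libraries: the log2 ratio of STAR to HISAT-3N reads, averaged over them. Its distribution had a peak of 629 genes between 0.10 and 0.14 and a second of 375 genes between 0.38 and 0.42. Between them lay a trough of 96 genes from 0.22 to 0.26, in bins 0.04 wide. Divided at 0.24, the lower group held 2025 genes and the upper group 2019. The groups are described here without a test.

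**Figure D2:**
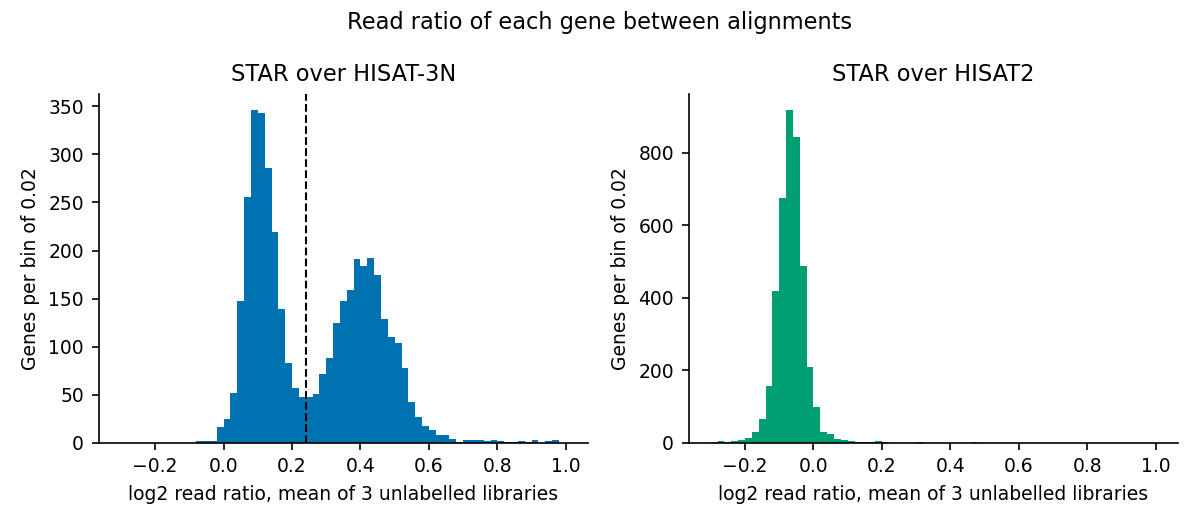
Number of genes in bins of 0.02 (y axes) by the log2 ratio of STAR to HISAT-3N reads (left) and of STAR to HISAT2 reads (right), each the mean of the 3 unlabelled improved-handling libraries (x axes). The left panel has 2 peaks on either side of the dashed line at 0.24 and the right panel has 1 peak, below 0. In the left panel 19 genes and in the right 17 lie outside the plotted range of −0.3 to 1.

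The division was seen against HISAT-3N and was not seen between STAR and HISAT2. In the unlabelled libraries, the median log2 ratio of STAR to HISAT2 reads was −0.07 in both groups, while that of HISAT2 to HISAT-3N reads was 0.17 in the lower and 0.48 in the upper group. The groups carried over to libraries that had no part in making them. In the 6 labelled libraries the median log2 ratio of STAR to HISAT-3N was 0.16 (0.13 to 0.19 over libraries) in the lower and 0.38 (0.34 to 0.41) in the upper group. In the 6 labelled drop-out libraries it was 0.21 and 0.44. The median number of reads per gene and library was 171 in the lower and 168 in the upper group under HISAT-3N, 193 and 216 under STAR, and 179 and 199 under HISAT2. The median number of T positions per read was 35.7 and 35.6.

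New-RNA estimates stood apart between the groups under HISAT-3N and lay close together under both other aligners. The median converted share over the labelled libraries was 24.6% in the lower and 28.7% in the upper group with HISAT-3N. With STAR it was 23.3% and 23.0%, and with HISAT2 18.1% and 17.9%. The paired difference between STAR and HISAT-3N had a median of −1.19 points in the lower group (−1.85 to −0.80 over libraries) and of −5.32 points in the upper (−6.54 to −4.16). The ranges of the 2 groups over the 6 libraries did not overlap. Relative to the HISAT-3N share, these were −4.60% and −18.3%. With the converted share of the unlabelled library of the same chemistry subtracted, the medians were −2.13 points in the lower and −5.83 points in the upper group.

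**Figure D3:**
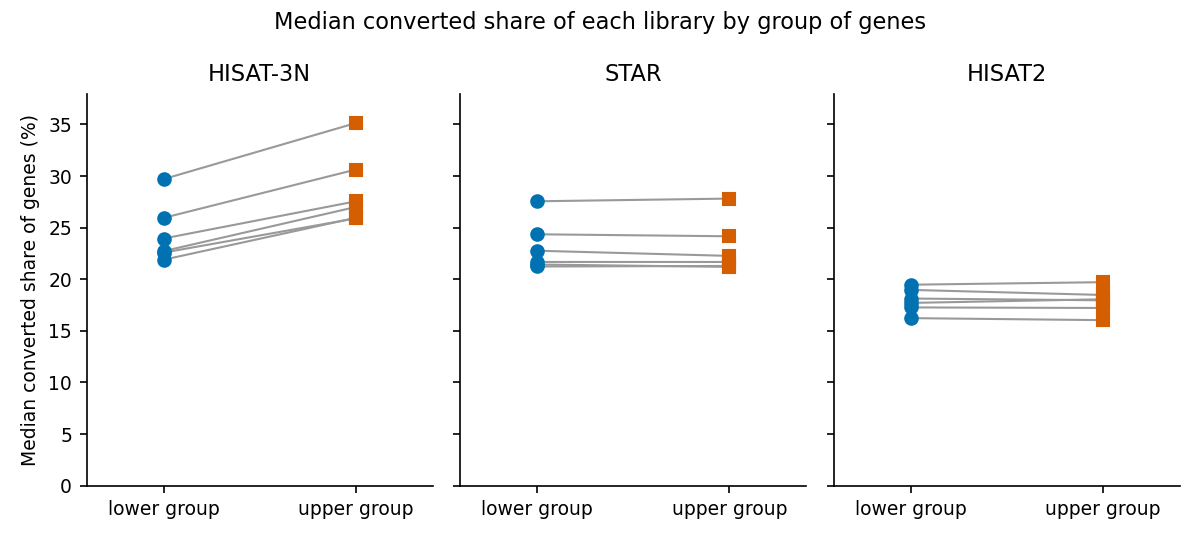
Median converted share (y axis, percent) of the lower and the upper group of genes in each of the 6 labelled improved-handling libraries, in one panel each for HISAT-3N, STAR and HISAT2, with a line joining both groups of a library. The upper group lies above the lower in the HISAT-3N panel (medians 28.7% and 24.6%), and both lie close together with STAR (23.0% and 23.3%) and HISAT2 (17.9% and 18.1%).

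Unconverted reads carried the split, which was cut on unlabelled libraries, where nearly all reads are unconverted. Converted reads had a median log2 ratio of STAR to HISAT-3N of 0.09 in the lower and 0.08 in the upper group, and unconverted reads of 0.19 and 0.49. Among pooled reads with 0 mismatches the ratio was 0.18 and 0.55, at 1 mismatch 0.18 and 0.22, at 2 mismatches 0.10 and 0.12 and at 3 mismatches 0.07 and 0.10. The gap was thus far smaller with mismatches, but the upper group was above the lower in each of the 6 libraries up to 4 mismatches. HISAT2 gave nearly the same values as STAR for reads with 0 mismatches, 0.19 and 0.55 over HISAT-3N. HISAT2 lost reads with many mismatches, with a log2 ratio to HISAT-3N of −2.99 at 6 mismatches in the lower group, where STAR had 0.06.

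**Figure D4:**
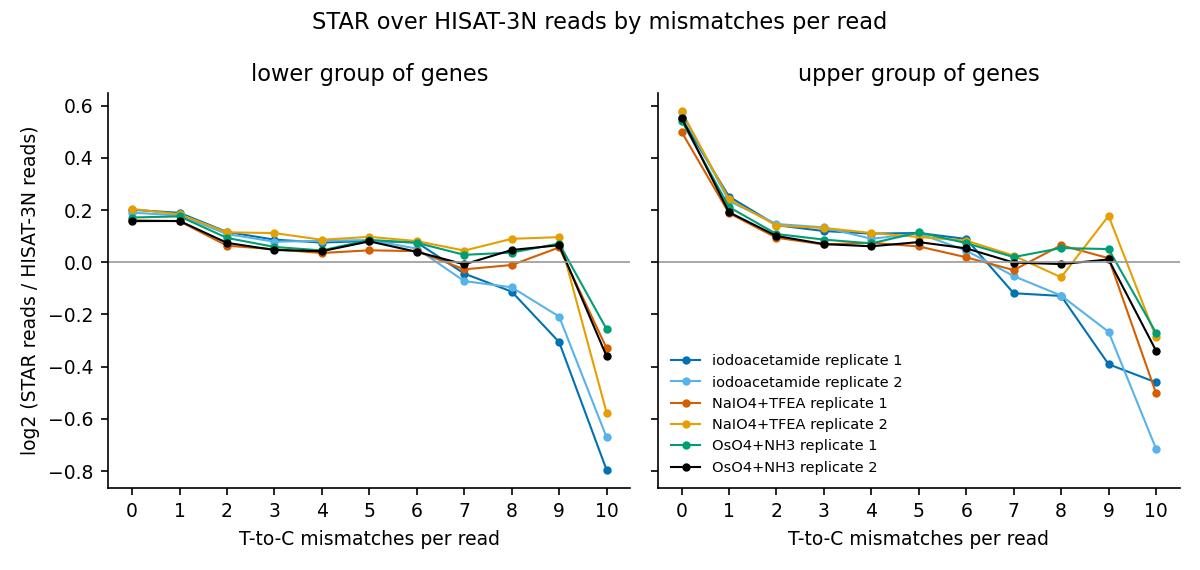
Log2 ratio of STAR to HISAT-3N reads (y axis) by the number of T-to-C mismatches of a read (x axis), in the lower group of genes (left) and the upper group (right), with a line for each of the 6 labelled improved-handling libraries. The groups stand apart at 0 mismatches (medians 0.18 and 0.55) and differ less at 2 (0.10 and 0.12).

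The share calls of single genes followed the groups. The share was called lower under STAR in 699 genes of the lower group (34.5%) and in 1893 of the upper (93.8%), against 64.1% of all genes, and called higher in 17 genes of each. Of the 1114 genes with a called fall of at least 5 points, 1110 were in the upper group and 4 in the lower. After TMM scaling, 1416 upper genes (70.1%) and 17 lower genes (0.840%) were called higher in reads, where 35.4% of all genes were. Lower calls went to 56 (2.77%) and 1629 (80.4%), where 41.7% of all genes were. The groups were cut on the same read ratio in other libraries, so these read counts largely restate the grouping and do not add to it. Reads of those unlabelled libraries were 2.90% to 3.89% converted under HISAT-3N, so the cut was close to one on unconverted reads. A gain in unconverted reads lowers the share, so the share calls and the correlation below are not separate support for the groups either. Across the 4044 genes, Spearman's rho between the share difference in labelled libraries and the read ratio in unlabelled ones was −0.749, a description across genes that share aligners and annotation.

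Both groups were found on all chromosomes with at least 40 members. The upper group made up from 44.4% of the members on chromosome 14 to 57.5% on chromosome 19, and it held all 15 mitochondrially encoded genes. Some reads fit several genes at once, and such reads named 774 pairs of member genes together. Both genes of a pair were in the same group in 725 pairs (93.7%), of which 411 were upper and 314 lower, where the upper group held 49.9% of all member genes. What else the genes of a group share was not tested, since the reference used here pairs the identifiers with no symbol, gene type or strand.

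The fall in points was larger for genes with a higher converted share in the drop-out libraries. Genes were divided into quintiles by this share in the labelled drop-out libraries, which the comparison does not use. This share was the mean of both alignments, without correction for background, so it is not an amount of new RNA. Some genes were ranked on few reads, with a median of 16 per drop-out library in the quintile with the fewest. The upper group made up 45.2% of the lowest quintile by converted share and 55.6% of the highest. The median share difference was −1.26 points in the quintile with the lowest share and −4.84 in the quintile with the highest. The share was called lower in 397 (49.1%) and 592 (73.2%) of 809 genes each, against 64.1% of all genes. As a percent of the HISAT-3N share, the medians were −8.69% and −9.57%, with −10.7% in quintile 3 and so no steady trend. Within the groups the relative fall was smallest in the highest quintile (−4.31% and −3.87% in the lower group, −18.2% and −15.3% in the upper, lowest quintile first). Within the lower group the medians went from −0.59 to −1.73 points, and within the upper group from −2.61 to −7.18 points. The group and the drop-out converted share thus each went with the size of the fall in points. Within each quintile the groups stood apart.

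**Figure D5:**
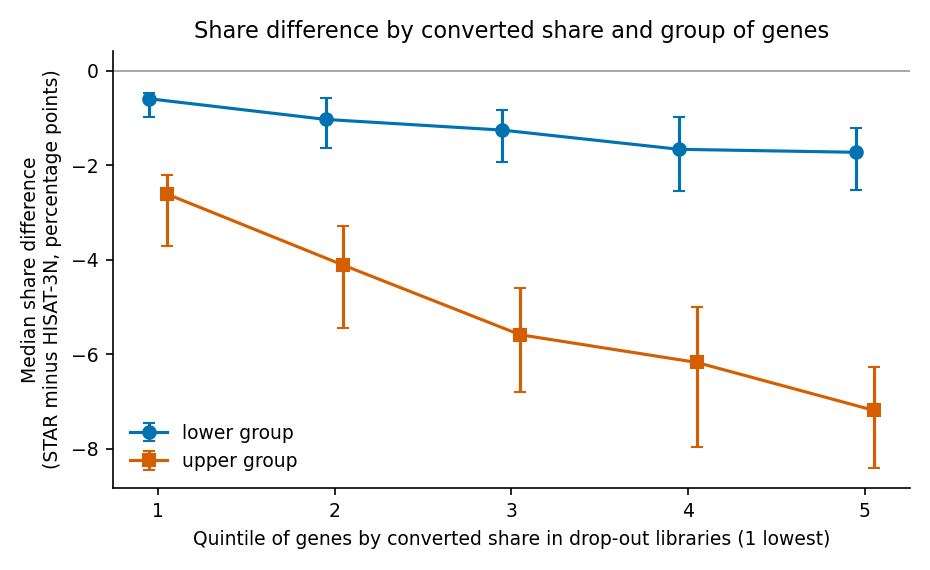
Median difference in converted share, STAR minus HISAT-3N (y axis, percentage points), for quintiles of genes by their converted share in the labelled drop-out libraries (x axis), in the lower and upper group, with bars from the lowest to the highest of the 6 libraries. The upper group runs from −2.61 to −7.18 points and the lower group from −0.59 to −1.73.

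Other measured properties also went with the size of the fall in points. By exonic reads in the drop-out libraries, the median share difference was −3.94 points in the quintile with the fewest reads and −1.56 in that with the most. By T positions per read it was −1.86 and −3.26 points from the fewest to the most, and by intronic share −1.52 and −3.72 points from the lowest to the highest. As a percent of the HISAT-3N share, the medians ran from −8.84% to −11.7% by T positions and from −7.85% to −10.9% by intronic share, wider than by converted share. By exonic reads they were −11.9% with the fewest and −10.5% with the most, with no steady trend (−8.46% in quintile 4). The median HISAT-3N share itself went from 34.2% to 17.0% over those quintiles. These properties were not separated from the converted share. Genes without any read that also fit another gene (3332) had a median of −2.50 points, and the 124 with over 20% of such reads −2.91. By chromosome, medians lay between −3.64 points on chromosome 18 and −1.74 on chromosome 19, or −9.44% and −11.4% of the HISAT-3N share.

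Mitochondrially encoded genes specify respiratory chain subunits, ribosomal RNAs and transfer RNAs and have no introns. The 15 among the members, whose types were not known here, gained more pooled reads than the rest. Their pooled reads were higher under STAR by 44.4% to 51.7%, against 19.9% to 26.1% for the other members and 32.9% to 40.6% for the upper group, which includes them. All 15 were called higher in reads (log2 0.28 to 0.91), where 99.2% of all genes were. Gene by gene the gap was smaller, with a median log2 ratio of 0.42 against 0.38 in the upper group. The share was called lower in 14 of the 15, with differences of −9.28 to 1.15 points and a median of −4.24. Since all 15 are in the upper group, the values to read this against are that group's 93.8% called lower and median of −5.32 points, rather than the 64.1% of all genes. Their pooled converted share was lower by 3.04 to 4.83 points (−4.83 to −3.04), and their part of the members' reads went from 5.19% to 7.17% under HISAT-3N to 6.21% to 8.59% under STAR.

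Single genes were named by size among those called, with the same sign in 6 of 6 libraries and a mean of at least 100 reads. The largest gain in reads was in ENSG00000177954 on chromosome 1. It had 78 to 212 reads per library under HISAT-3N (median 145.5) and 386 to 941 under STAR (median 648.5), and the ranges did not overlap. Its log2 ratio was 2.15 ± 0.115 (SE; edgeR quasi-likelihood, adjusted p = 3.5e-11), and its converted share went from 11.6% ± 4.35 to 5.22% ± 1.26 (SD, n = 6). The difference in share was uneven between chemistries, at −9.73 points after NaIO4 and TFEA, −7.94 after OsO4 and NH3 and −1.54 after iodoacetamide. HISAT2 gave this gene 663 reads on average, near the STAR mean of 654.5. In the drop-out libraries the mean log2 ratio was 2.01, higher in 6 of 6.

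The next, ENSG00000147604 on chromosome 8, had 166 to 400 reads under HISAT-3N (median 257.5) and 578 to 1371 under STAR (median 1002.5). Its log2 ratio was 1.91 ± 0.037 (SE; edgeR adjusted p = 9.9e-17). Its share was low under both, at 9.35% and 7.21%. HISAT2 gave a mean of 1011 reads, and the drop-out libraries a mean log2 ratio of 1.86, higher in 6 of 6. The fall in share did not recur in the drop-out libraries. There the mean difference was 1.92 points (−2.02 to 6.34), lower under STAR in 2 of 6, with as few as 19 HISAT-3N reads.

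Only 1 gene passed the naming rule with fewer reads under STAR, ENSG00000263740 on chromosome 3. It had 635 to 1045 reads under HISAT-3N (median 862) and 236 to 712 under STAR (median 543.5), and STAR was lower in each library. The log2 ratio was −0.67 ± 0.097 (SE; edgeR adjusted p = 5.9e-06). Its share fell from 17.2% to 4.27%, and without s4U it was 9.36% and 1.83% in the pooled unlabelled libraries. HISAT2 gave a mean of 1378 reads, above both others, with a share of 4.56%. The drop-out libraries gave a mean log2 ratio of −0.73, lower in 6 of 6.

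The largest fall in converted share was in ENSG00000248527 on chromosome 1. Under HISAT-3N its share ran from 80.0% to 87.3% (median 83.6%), and under STAR from 20.5% to 33.7% (median 25.8%). The mean difference was −57.6 ± 3.61 points (SD, n = 6; edgeR adjusted p = 4.8e-22). Its reads had a median of 617.5 under HISAT-3N and 1137 under STAR. Without s4U, 32.9% of its HISAT-3N reads were converted against 4.21% with STAR, and with the unlabelled share subtracted the difference was −24.5 points. HISAT2 gave 23.3%, above its medians of 18.1% and 17.9% in the lower and upper group. In the drop-out libraries the difference was −54.4 points, lower in 6 of 6.

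ENSG00000146872 on chromosome 17 had the next largest fall, from a share of 50.5% to 68.1% (median 58.7%) under HISAT-3N to 34.3% to 51.0% (median 45.8%) under STAR. The difference was −15.0 ± 3.64 points (SD, n = 6; edgeR adjusted p = 1.2e-09), and HISAT2 gave 37.0%. In the drop-out libraries, with as few as 16 HISAT-3N reads, the difference was −9.20 points and lower in 5 of 6. Both genes with the largest falls were in the upper group.

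Rises in share were smaller. ENSG00000205937 on chromosome 16 went from 24.7% to 33.3% (median 26.7%) under HISAT-3N to 29.6% to 39.2% (median 32.1%) under STAR, a difference of 6.09 ± 2.36 points (SD, n = 6; edgeR adjusted p = 1.1e-07). The other, ENSG00000272391 on chromosome 7, differed by 4.84 ± 3.53 points (edgeR adjusted p = 0.00012). With the unlabelled share subtracted, the rises were 4.99 and 3.02 points. Both were in the lower group. HISAT2 gave 27.4% and 27.9%, where its median in that group was 18.1%. The means of the 2 genes were 27.5% and 28.2% with HISAT-3N and 33.6% and 33.1% with STAR. Lower-group medians with these aligners were 24.6% and 23.3%, so shares from HISAT2 ran lower in general. Both genes were higher in 6 of 6 drop-out libraries, by means of 4.34 and 2.97 points.

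Some genes were kept by one alignment only. With HISAT-3N alone 18 genes reached 50 reads in each library, and 13 of them had over 4 times the STAR reads. The 2 with the most reads lie on chromosome 1. ENSG00000237973 had 189 to 578 reads under HISAT-3N (median 399) and 49 to 107 under STAR (median 64.5), with mean converted shares of 64.9% and 28.7%. ENSG00000229344 had 113 to 464 HISAT-3N reads (median 262.5) and 1 to 6 STAR reads, 15 in all. Its HISAT-3N share was 79.6% ± 4.95 (SD, n = 6). Without s4U, 16.9% of the HISAT-3N reads of ENSG00000237973 and 14.8% of those of ENSG00000229344 were already converted. For the 4044 genes this background was 2.90% to 3.89% per unlabelled library. Over all 18 genes the direction depended on the summary: the median share was 14.99% under HISAT-3N and 23.3% under STAR, and the pooled share 36.5% and 28.4%, from 18816 and 2873 reads.

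With STAR alone 841 genes reached the minimum, and 625 of them had 40 to 49 reads in their lowest HISAT-3N library. Their median log2 ratio was 0.33, and 4 were over 4-fold higher. ENSG00000263934 on chromosome 17 had 43 to 96 HISAT-3N reads (median 60.5) and 398 to 798 STAR reads (median 745). ENSG00000122026 on chromosome 13 had 8 to 26 (median 14) and 316 to 609 (median 550.5). HISAT2 gave means of 585 and 539 reads, near those of STAR. Near the minimum, and with no comparison drawn because the genes just outside reached it under STAR only, the 356 members with 50 to 54 reads in their lowest HISAT-3N library had a median share difference of −2.96 points, and the 625 genes just outside had −3.79.

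The pooled falls were larger in both OsO4 and NH3 libraries (−4.34 and −3.68 points) than in the other 4 (−2.91 to −2.76). By chemistry, the pooled share difference was −2.81 ± 0.0727 points after NaIO4 and TFEA, −2.86 ± 0.0646 after iodoacetamide and −4.01 ± 0.461 after OsO4 and NH3 (SD, n = 2 each). An exact one-way permutation test over 90 arrangements gave p = 0.13333, and the smallest p it allows is 0.066667, so this design cannot pass 0.05. Gene by gene, edgeR's quasi-likelihood F test called 4 genes (0.0989%) in reads and 3 (0.0742%) in share, with 345 and 314 at an unadjusted p under 0.05; with 2 libraries per chemistry, a gene without a call is not shown to be alike. ENSG00000177954 was called in both. Its log2 read ratio was 2.93 after NaIO4 and TFEA, 1.82 after iodoacetamide and 1.80 after OsO4 and NH3 (edgeR adjusted p = 1.1e-05). ENSG00000263740 was called in reads, at −1.31, −0.52 and −0.40 in that order (edgeR adjusted p = 0.018). Leaving out replicate 1 or replicate 2 of NaIO4 and TFEA raised the 4 read calls to 12 and 11, and leaving out replicate 1 lowered the 3 share calls to 1. That chemistry then has 1 library, which is assumed to vary like those of the other chemistries.

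Libraries without s4U showed the read difference without the fall in share. Their member reads were higher under STAR by 22.6 ± 7.18% (SD, n = 3 chemistries). Their converted share was 3.15% and 3.29% with NaIO4 and TFEA, 3.89% and 4.63% with iodoacetamide and 2.90% and 3.31% with OsO4 and NH3, HISAT-3N first in each. The mean difference was 0.428 ± 0.301 points, opposite in sign to the labelled libraries. Without s4U the log2 ratio of STAR to HISAT-3N reads rose with the number of mismatches in each library, against the pattern with s4U. From 0 to 3 mismatches it went from 0.21 to 1.51 with NaIO4 and TFEA, from 0.37 to 1.70 with iodoacetamide and from 0.28 to 1.24 with OsO4 and NH3. The values at 3 mismatches rest on 41 to 57 HISAT-3N reads per library. With each unlabelled share subtracted, the median gene's difference in labelled libraries was −3.40 points. The term for labelling was called for share in 1944 genes (48.1%), lower in labelled libraries in 1943 of them (295 genes when a converted read needs at least 2 mismatches), and for reads in 15 (0.371%), by edgeR's quasi-likelihood test (adjusted p under 0.05). The count for reads rested on single libraries. Of the 15, 13 were lower and 2 higher in labelled libraries. Without the unlabelled iodoacetamide library there were 624, of which 574 were higher and 50 lower, and without that of NaIO4 and TFEA 265, of which 1 was higher and 264 lower. The direction of this term thus depended on which unlabelled library was left out. The count was 8 without labelled replicate 1 of NaIO4 and TFEA and 5 without labelled replicate 2 of OsO4 and NH3. It was 317 after TMM scaling, of which 261 were lower and 56 higher in labelled libraries.

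The labelled drop-out libraries, which took no part in choosing the 4044 genes, had the same direction and smaller falls in points. In the 1978 member genes that also held 50 reads in each drop-out library under both alignments, the share was called lower in 775 (39.2%) and higher in 46 (2.33%). The same genes under improved handling gave 1140 (57.6%) lower. Of 1168 calls in either direction under improved handling and 821 under drop-out, 766 were shared (65.6% and 93.3%), 764 with the same sign. Median differences were −1.77 and −0.84 points. The drop-out libraries also had lower converted shares under HISAT-3N. Over all 4044 genes, and not only the 1978, the medians were 13.6% in the lower and 16.2% in the upper group. The paired differences over all 4044 genes were −0.37 and −2.72 points, which are not comparable with the −0.84 points above. They include genes with few drop-out reads, with a median of 16 per library in the quintile with the fewest. STAR gave the drop-out libraries 54.7% to 66.9% fewer intronic gene reads (−66.9 to −54.7%), a far larger loss than the −3.48% under improved handling.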

How the data were processed

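Per the labels' protocols, total RNA was extracted with Trizol, treated with DNase, recoded and made into stranded low-input total RNA libraries. The authors deposited counts: the number of reads per library, aligner, settings code, gene, intronic flag and number of T-to-C mismatches. The other columns of the deposited table, the numbers of mismatches and T positions per read, are also the authors'. The submitters' processing notes name cutadapt, HISAT, HISAT2, STAR, Picard and HTSeq and the build GRCh38, without versions; what the settings codes mean, whether counting used strand, and how near-identical genes were told apart are not given in the sources used here. Reads that name no gene (18.4% to 25.7% of a labelled library under HISAT-3N, 20.3% to 26.9% under STAR) entered no gene test.

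Exonic reads were summed per gene for HISAT-3N D, STAR D and, for a description, HISAT2 D. Reads and converted reads were tested with edgeR 4.0.16 (R 4.3.3; quasi-likelihood without a Poisson bound), with a term per library, equal library sizes for both alignments and no scaling. Adjusted p-values are Benjamini-Hochberg over all 4044 genes. An SE of a log2 ratio is that ratio divided by the square root of the test's F statistic. Both alignments hold the same reads, so these p-values and SEs tell only how steady a gene's difference was over libraries. Pooled values were tested by two-sided exact sign flips over libraries. DESeq2 1.42.0, limma 3.58.1, TMM, read minimums of 10 and 200, other STAR settings, at least 2 mismatches and leaving out each library were alternatives. Scripts were tested on simulated data. The 2 replicates of a chemistry were no duplicates (chi-square per degree of freedom 2.52 to 3.21).

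Genes named were called, had 1 sign in 6 of 6 libraries and a mean of at least 100 reads, and are the most extreme in each direction; 2 identifiers per direction are given because the reference pairs none with symbols. For the same reason classes by symbol or gene type, the check of line markers and sequences are not reported here. The members and lists were chosen with earlier results of these data known.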

Additional observations from a re-analysis of the deposited data

Results flagged for a closer look

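The difference between alignments was called as unlike between chemistries or with labelling in some of the 4044 genes, by edgeR's quasi-likelihood test of the difference itself (adjusted p under 0.05). Between chemistries, 4 genes (0.0989%) were called in reads and 3 (0.0742%) in converted share. Between labelled and unlabelled libraries, 1944 genes (48.1%) were called in converted share and 15 (0.371%) in reads. The direction of the read calls with labelling depended on single unlabelled libraries. The converted share of unlabelled libraries was near 3% to 5%, so the labelling term compares differences on very unequal levels, and each chemistry had 1 unlabelled library. No sample stood apart by Dixon's criterion in the 10 sets of values checked.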

How the results depend on the processing

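Of 208 results under another setting, 171 kept their side of the threshold or, for counts of genes, about their size. A median of a gene group was kept if it moved by no more than the SD over libraries. A count says nothing of direction. Of the 208, 86 were for single genes named as the most extreme, and 85 of these were kept. TMM turned the split of read calls from 4011 higher and 4 lower to 1433 and 1685. The read calls between labelled and unlabelled libraries went from 2 higher and 13 lower to 574 and 50 without unlabelled iodoacetamide. The 4015 genes with a called read difference became 6334 with intronic reads added, 8766 with a minimum of 10 reads, 683 with 200 and 776 with DESeq2 (403 higher, 373 lower, on its own size factors). The 2626 share calls became 5359, 4824, 520 and 965 in that order, and 1497 with a Poisson bound. Minimums and intronic reads change how many genes are tested; the cause of the other changes was not tested. Between chemistries, the read calls (4) became 10 with the replicate block and 4 to 12 without 1 library. The share calls there (3) became 1 with a minimum of 200 reads or with at least 2 mismatches. Between labelled and unlabelled libraries, share calls (1944) became 378 with 200 reads and 295 with 2 mismatches, and read calls (15) became 5 with 200 reads, 317 with TMM and 5 to 624 without 1 library. The pooled share difference was −3.32 to −3.01 points and that in reads 23.7% to 24.9% without 1 library, each at exact p = 0.0625, the smallest that 5 libraries allow. The median of the upper group was −3.74 points with at least 2 mismatches.

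Replicate numbers did not pair libraries across chemistries, as same-numbered deviations correlated at −0.023 to 0.059. With the replicate block, 4014 genes were called in reads and 2573 in share.

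Leaving out each unlabelled library put 1941 to 2093 genes in the upper group. With the unlabelled library subtracted, the share difference of ENSG00000248527 was −24.5 points. Each background rests on 1 unlabelled library per chemistry.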

Other observations

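In the labelled libraries, intronic reads of the same genes, converted and unconverted together, differed little between the groups. The 1355 lower and 1387 upper genes with at least 300 intronic HISAT-3N reads over the 6 labelled libraries were compared. Their median log2 ratio of STAR to HISAT-3N intronic reads, summed over these libraries, was 0.03 and 0.05. The minimum was set on HISAT-3N reads only, which can lower this ratio. Exonic reads of the whole groups had 0.16 and 0.38 in the same libraries, as means of the ratios per library. The exonic and intronic values thus differ in measure and in genes. The intronic reads were not split by conversion or compared in unlabelled libraries, so whether unconverted intronic reads divide was not tested. In the unlabelled drop-out libraries, which had no part in the grouping, the exonic medians were 0.21 and 0.50. Dividing the genes by those drop-out libraries in place of the improved-handling ones put 2426 genes in the upper group, and 86.5% of genes kept their group.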
